A study of Mus musculus with 17 samples.

Results

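The genes described here are 36 mouse genes of the collagen matrix, out of 37620 gene rows in the table. They were chosen by known role: 10 collagen chains, 10 matrix glycoproteins and 4 proteoglycans (24 secreted matrix genes), 5 crosslinking enzymes, and 7 intracellular enzymes or chaperones that build procollagen. The rule uses roles and no measured value, but the list was chosen with earlier results of these data known. All 36 symbols were found in the table. Levels are in TPM, RNA abundance per transcript length on a scale with the same total in each library. None of the 10 listed collagen chains reached TPM 1 in any library, and 5 of the 7 intracellular collagen-processing genes did so in at least 3 libraries. Of the 9 genes that could be tested, 0 passed the threshold under TGF-β1 or between the labelled genotypes, where 0.00823% to 0.181% of all tested genes did so, a share at which 0 of 9 says little about these genes.

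RNA was sequenced from bone marrow-derived macrophages of C57BL/6J (H-2b) mice, which had been cultured in 50 ng/ml of M-CSF, a macrophage growth factor, over 7 days. There were 5 wild-type control libraries, 4 wild-type libraries given 5 ng/ml of TGF-β1 (transforming growth factor beta 1) over 5 days, 5 control libraries labelled Smad3 knockout, and 3 TGF-β1 libraries labelled Smad3 knockout. The study concerns the macrophage-myofibroblast transition and its dependence on Smad3, which relays TGF-β receptor signals to target genes. The treatment text is the same for controls, so how long controls were cultured is unknown here, as is the Smad3 allele, and no label ties a library to the sort on alpha smooth muscle actin.

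Smad3 itself reached TPM 1 in 2 of the 9 wild-type libraries and in 3 of the 8 libraries labelled knockout, so the genotype is called labelled throughout. The files do not show which exons those Smad3 reads covered. The libraries had 7269 to 10307 genes at TPM 1 or more. Among genes at moderate levels (10 to 50 TPM in the rest of the group), 4.08% to 14.8% were listed at 0 in a library, and 6 libraries lay over 10%. The 10 macrophage markers were all detected, while 5 of 11 fibroblast and myofibroblast markers (Pdgfra, Dpt, Tcf21, Cnn1 and Myh11) were listed at 0 in all 17 libraries. Summed fibroblast and myofibroblast markers stood at 0.0900 to 0.840 TPM in wild-type control and 0.420 to 22.5 TPM in wild-type TGF-β1 libraries. In the labelled knockout they stood at 0.0900 to 251 TPM in control and 0.05 to 0.290 TPM in TGF-β1 libraries. Most of the highest labelled-knockout control sums was Pdpn alone, at 248.96 TPM in replicate 5 and 26.61 TPM in replicate 4. Acta2, which encodes alpha smooth muscle actin, reached 22.5 TPM in wild-type TGF-β1 replicate 3 and 8.12 TPM in labelled-knockout control replicate 1, and lay at 0.120 TPM or less in the other libraries. Animals and cultures are not named, and single cells and bulk RNA are both mentioned in the study's text, so each p-value reflects library-to-library spread alone, which may be technical.

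Collagen is made as alpha chains that are hydroxylated on proline and lysine and folded into a triple helix inside the endoplasmic reticulum, then secreted, trimmed and crosslinked outside the cell. Prolyl hydroxylases stabilise the helix, lysyl hydroxylases prepare the residues used for crosslinks, and lysyl oxidases and a transglutaminase join the secreted molecules. Fibroblasts and myofibroblasts are the usual main producers of fibrillar collagen, and macrophages are better known for taking up and degrading matrix, though they secrete some matrix glycoproteins. TGF-β is a widely studied inducer of matrix genes in fibroblasts.

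Promoter sequences are shown for 4 genes, to set an always-detected enzyme, the lysyl hydroxylase that differed most under TGF-β1 in wild type, the most abundant secreted gene and an undetected fibrillar collagen side by side. They come from RefSeq (GRCm38.p6, which is not the mm9 build of the submitters), which had a promoter for 24 of the 36 genes, and run 5′ to 3′ on the gene's strand over the 250 bases before the listed start, with each CG dinucleotide in capitals. P4hb lies at chr11:120573254-120573503 on the minus strand, Plod1 at chr4:147936777-147937026 on the minus strand, Tgfbi at chr13:56609336-56609585 on the plus strand and Col3a1 at chr1:45311288-45311537 on the plus strand.
P4hb: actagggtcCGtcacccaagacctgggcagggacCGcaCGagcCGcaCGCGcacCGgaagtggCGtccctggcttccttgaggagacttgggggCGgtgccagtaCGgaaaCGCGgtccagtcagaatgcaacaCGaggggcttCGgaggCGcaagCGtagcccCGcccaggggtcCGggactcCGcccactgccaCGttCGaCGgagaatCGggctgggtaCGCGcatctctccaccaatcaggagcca
Plod1: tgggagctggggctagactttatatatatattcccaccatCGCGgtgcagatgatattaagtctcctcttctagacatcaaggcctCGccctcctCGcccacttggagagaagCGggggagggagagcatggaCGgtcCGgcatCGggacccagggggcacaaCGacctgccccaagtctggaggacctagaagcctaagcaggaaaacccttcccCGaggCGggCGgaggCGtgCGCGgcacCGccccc
Tgfbi: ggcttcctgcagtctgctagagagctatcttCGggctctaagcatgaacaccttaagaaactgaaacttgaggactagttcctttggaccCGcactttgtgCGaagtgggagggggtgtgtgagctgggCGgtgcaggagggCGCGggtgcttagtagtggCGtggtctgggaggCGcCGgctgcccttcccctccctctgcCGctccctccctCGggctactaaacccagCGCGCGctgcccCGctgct
Col3a1: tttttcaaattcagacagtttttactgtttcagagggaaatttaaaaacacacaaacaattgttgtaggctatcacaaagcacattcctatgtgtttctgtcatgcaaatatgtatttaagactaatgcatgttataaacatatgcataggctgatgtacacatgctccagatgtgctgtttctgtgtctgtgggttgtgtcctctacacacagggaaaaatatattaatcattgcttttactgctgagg

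The P4hb promoter held 25 CG dinucleotides, more than 89.7% of all 27025 promoters of the same length, Plod1 held 16 and Tgfbi held 15. Col3a1 held 0. The median was 6.00 over all promoters, 16.0 over those of genes at TPM 1 in at least 3 libraries and 3 over those of genes listed at 0 in all libraries. Intracellular collagen-processing genes had 11 to 25 (median 19.0, 6 promoters) and secreted matrix genes 0 to 31 (median 9, 18 promoters). A CG-rich promoter did not go with detection in every case, since Col4a1 with 31, Col5a1 with 28 and Col4a2 with 26 were listed at 0 in all 17 libraries, and the detected Ecm1 had 1. The 5-letter motif CAGAC or its reverse complement GTCTG, a core to which Smad proteins are known to bind, was present in 12 of the 24 promoters and in 42.1% of all promoters. Such short matches are a description of the letters only.

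Detection split the genes by role. Of the 36, 9 reached TPM 1 in at least 3 libraries and were tested, 3 reached it in 1 or 2 libraries, 7 were above 0 without reaching TPM 1, and 17 were listed at 0 in all 17 libraries. The 17 are Col1a1, Col3a1, Col5a1, Col5a2, Col4a1, Col4a2, Col6a1, Col6a3, Fn1, Postn, Fbn1, Tnc, Lum, Dcn, Vcan, Loxl1 and Serpinh1. Their share, 47.2%, lay beside 47.3% of all rows in the table and 32.7% of the 20195 protein-coding genes. Being listed at 0 was thus about as frequent as over all rows and more frequent than over protein-coding genes. The share at TPM 1 in at least 3 libraries was 25.0%, against 32.3% of all rows and 50.7% of protein-coding genes.

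By role, 0 of the 10 collagen chains, 3 of the 24 secreted matrix genes as a whole (12.5%), 1 of the 5 crosslinking enzymes (20%) and 5 of the 7 intracellular genes (71.4%) reached TPM 1 in at least 3 libraries. The 5 fibrillar chains (Col1a1, Col1a2, Col3a1, Col5a1, Col5a2) form the tensile fibres of connective tissue, and the 5 others (Col4a1, Col4a2, Col6a1, Col6a2, Col6a3) the basement membrane network and beaded filaments. Col1a2 was above 0 in 3 libraries, at no more than 0.0200 TPM, and Col6a2 in 1 library at 0.0100 TPM. Depth is unknown from TPM, so a gene listed at 0 was not detected in these values and is not shown to be absent. Fn1 and Serpinh1 are usually reported in macrophages of this kind, and whether their 0 in all 17 libraries comes from the gene annotation or the RSEM estimate was not tested. None of 30 genes that every cell uses was listed at 0 in any library, the lowest of their values being 0.540 TPM.

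**Figure D1:**
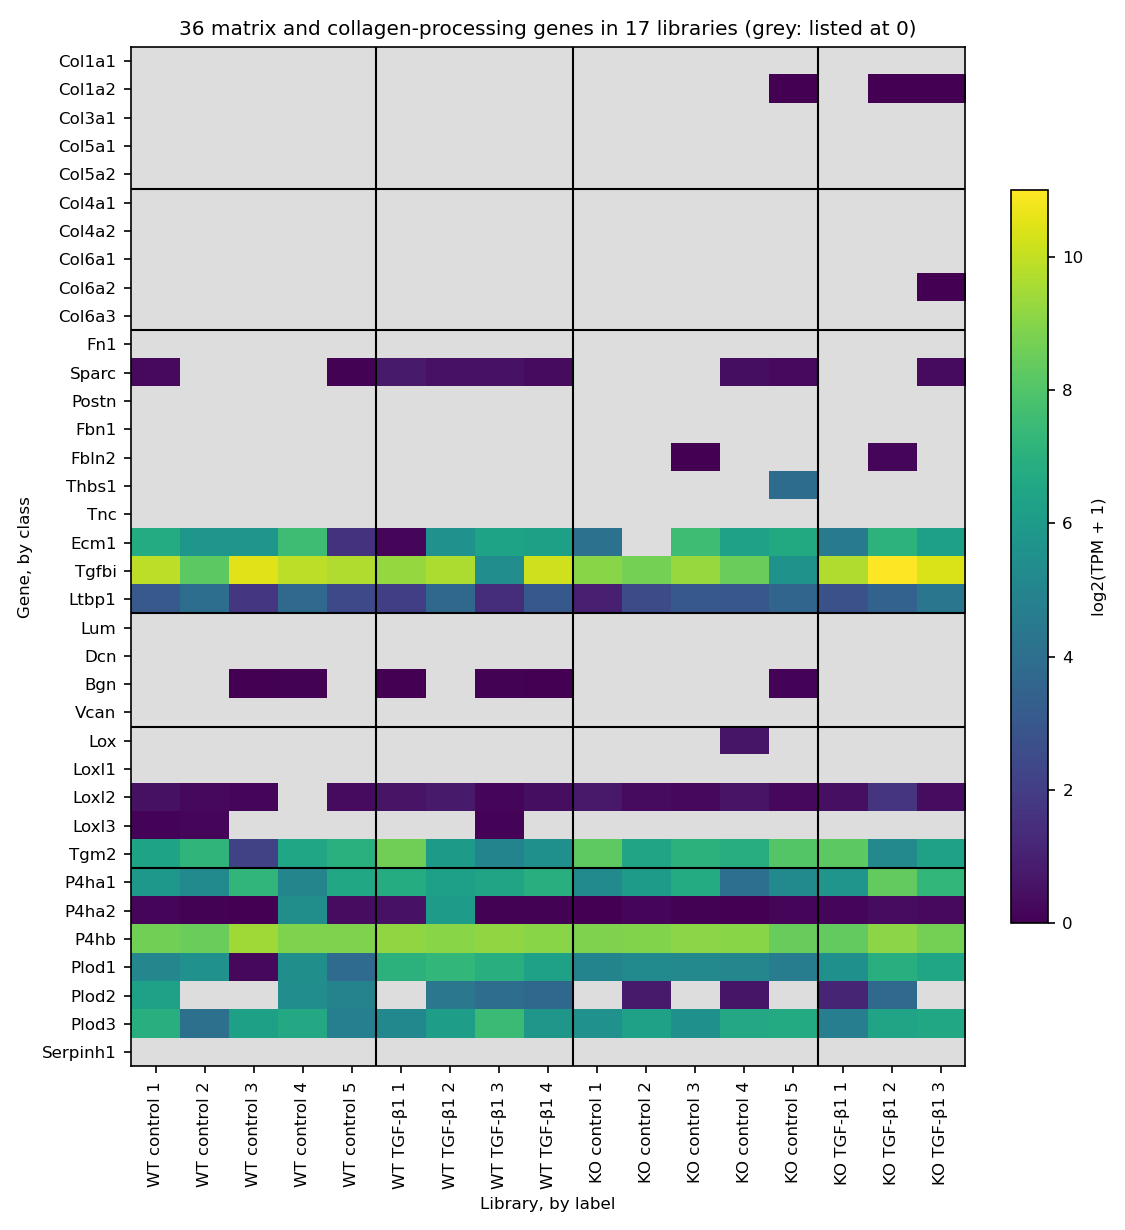
Level of each of the 36 genes (rows, by role, with black lines between roles) in each of the 17 libraries (columns, by label), as log2(TPM + 1) in colour and grey where listed at 0. The 10 collagen rows at the top are grey apart from traces of Col1a2 and Col6a2, while P4hb, P4ha1, Plod3 and Tgfbi are coloured across all columns.

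Further lists of related genes were described in the same way, beside the 32.3% of all rows and 50.7% of protein-coding genes at TPM 1 in at least 3 libraries. Of 29 further genes for collagen folding and export, 23 (79.3%) reached TPM 1 in at least 3 libraries, with Pdia3, Hspa5, Calr and Hsp90b1, all chaperones or folding enzymes of the endoplasmic reticulum, as the most abundant. Pdia3 had a mean of 678 ± 316 TPM (SD, n = 5) in wild-type control and 889 ± 161 TPM (SD, n = 4) in wild-type TGF-β1 libraries. Of 9 procollagen-processing proteases and their enhancers, 1 was at that level, namely Furin, a general proprotein convertase. Among 41 other matrix and matrix-related genes 11 reached it (26.8%, against 12.5% of the 24 secreted genes above). They were led by Spp1 (osteopontin, 6399 ± 4674 TPM, SD, n = 5, in wild-type control), Gpnmb, Srgn and Emilin2. Srgn is serglycin, the granule proteoglycan of blood cells. This list is thus wider than secreted matrix, and the shares are not of like sets. Of 13 genes of matrix uptake and turnover 11 did so, with the lysosomal proteases Ctsb, Ctss, Ctsl and Lgmn at the highest means. Ctsb stood at 4378 ± 736 TPM (SD, n = 5) in wild-type control. The other matrix and matrix-related genes include further collagen chains. Col14a1 was at 12.72 and 8.56 TPM in 2 wild-type TGF-β1 libraries and listed at 0 in the others. Col15a1 and Col18a1 each reached TPM 1 in at least 3 libraries. Col15a1 was at 3.39 TPM in wild-type control replicate 2 and at 7.68 and 6.25 TPM in labelled-knockout control replicates 1 and 4. It was at 4.79 TPM in labelled-knockout TGF-β1 replicate 1. Col18a1 was at 10.49 TPM in wild-type control replicate 4 and at 9.37 and 2.36 TPM in labelled-knockout control replicates 1 and 4. It was at 2.25 TPM in labelled-knockout TGF-β1 replicate 1. Col5a3, Col8a1, Col11a1, Col12a1 and Col16a1 did not reach TPM 1.

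Among the secreted genes, Tgfbi, which encodes a matrix protein that binds collagens and integrins and was named for its induction by TGF-β, held most of the signal. Tgfbi stood at 966.3, 298.6, 1460.2, 959.5 and 813.4 TPM in wild-type control, at 621.0, 804.2, 40.7 and 1188.3 TPM in wild-type TGF-β1, at 530.0, 411.4, 636.6, 367.5 and 47.1 TPM in labelled-knockout control, and at 816.6, 1991.7 and 1329.9 TPM in labelled-knockout TGF-β1 libraries. All 3 labelled-knockout TGF-β1 values lay above the 5 labelled-knockout control values, the wild-type groups overlapped, and wild-type TGF-β1 replicate 3 and labelled-knockout control replicate 5 lay far below the rest of their groups. Tgfbi ranked 145 by mean TPM among all rows, was the highest secreted gene of the list in 15 of 17 libraries, and made up a median of 93.2% (27.0% to 99.4%) of the summed secreted signal.

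Ecm1, a secreted glycoprotein that binds other matrix proteins, varied more within groups than 98.4% of tested genes, with a within-group SD of 2.60 on the log2 scale. Ecm1 stood at 108.8, 54.3, 53.3, 192.7 and 2.10 TPM in wild-type control, 0.130, 46.3, 82.7 and 75.1 TPM in wild-type TGF-β1, 16.0, 0, 189.0, 77.5 and 102.5 TPM in labelled-knockout control, and 21.9, 135.6 and 73.9 TPM in labelled-knockout TGF-β1 libraries. In each of the first 3 groups 1 library had far less than the others, and every pair of groups overlapped. Ltbp1, which anchors latent TGF-β in the matrix, was low in every group, between 0.940 and 19.2 TPM, with medians of 7.33, 5.10, 6.82 and 9.95 TPM in the same order. Thbs1 (thrombospondin 1, an activator of latent TGF-β) was at 13.7 TPM in labelled-knockout control replicate 5 and listed at 0 in the other 16 libraries. That library also had the highest Pdpn value (248.96 TPM), a fibroblast marker that other cells express too. Of the other fibroblast and myofibroblast markers in that library, Pdgfrb was at 1.93 TPM and the rest lay at 0.19 TPM or less. The part of other cells in the values of that library was not tested. Sparc, Fbln2 and Bgn were above 0 without reaching TPM 1 and were not tested. Sparc lay at 0.250 to 0.750 TPM in wild-type TGF-β1 libraries and at 0.230 TPM or less in wild-type control libraries. In the labelled knockout it lay at 0.320 TPM or less in control and 0.240 TPM or less in TGF-β1 libraries, with overlap.

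The crosslinking enzymes were represented by Tgm2, transglutaminase 2, which macrophages are known to express. Tgm2 stood at 82.5, 146.4, 3.48, 86.2 and 124.8 TPM in wild-type control, 390.9, 62.1, 29.7 and 44.3 TPM in wild-type TGF-β1, 309.5, 84.6, 133.5, 113.5 and 266.3 TPM in labelled-knockout control, and 302.7, 34.9 and 78.0 TPM in labelled-knockout TGF-β1 libraries. All 4 groups overlapped, with a wide spread in each. The lysyl oxidases, the copper enzymes that start collagen crosslinks, were near or at 0. Loxl2 reached TPM 1 in 1 library only (2.29 TPM, labelled-knockout TGF-β1 replicate 2), Lox was at 0.530 TPM in 1 library, Loxl3 did not exceed 0.160 TPM and Loxl1 was listed at 0.

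Inside the cell, prolyl 4-hydroxylase is a complex of catalytic alpha subunits (P4ha1, P4ha2) and the beta subunit P4hb, which is also protein disulfide isomerase, a general folding enzyme. P4hb stood at 407.1, 353.2, 692.0, 471.1 and 466.4 TPM in wild-type control, 585.0, 530.1, 573.6 and 520.5 TPM in wild-type TGF-β1, 466.2, 483.6, 541.9, 527.7 and 344.3 TPM in labelled-knockout control, and 322.8, 547.6 and 412.0 TPM in labelled-knockout TGF-β1 libraries. Its values varied little within groups, with an SD of 0.29 on the log2 scale, smaller than for all but 0.576% of tested genes, where the median was 1.47. P4hb was the highest intracellular gene of the list in 17 of 17 libraries, and exceeded P4ha1 plus P4ha2 by a factor of 1.69 to 34.8 (median 6.21).

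P4ha1 stood at 58.0, 36.2, 150.7, 31.2 and 96.1 TPM in wild-type control, 112.3, 72.1, 84.4 and 117.6 TPM in wild-type TGF-β1, 37.5, 66.3, 108.9, 15.2 and 36.8 TPM in labelled-knockout control, and 51.8, 323.6 and 152.9 TPM in labelled-knockout TGF-β1 libraries. Every pair of groups overlapped, and labelled-knockout TGF-β1 replicate 2 was the highest of the 17. P4ha2 reached TPM 1 in 2 libraries, at 42.3 TPM in wild-type control replicate 4 and 65.8 TPM in wild-type TGF-β1 replicate 2, and at 0.460 TPM or less in the other 15. Serpinh1, the collagen-specific chaperone Hsp47, was listed at 0 in all 17 libraries.

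The lysyl hydroxylases differed in pattern. Plod1, which acts mainly on lysines of the collagen helix, stood at 33.5, 46.4, 0.170, 44.1 and 13.3 TPM in wild-type control and at 134.0, 152.6, 117.9 and 77.0 TPM in wild-type TGF-β1 libraries. It stood at 30.0, 37.2, 34.8, 33.5 and 23.99 TPM in labelled-knockout control and at 44.4, 119.8 and 87.2 TPM in labelled-knockout TGF-β1 libraries. In both labelled genotypes every TGF-β1 library lay above every control library.

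Plod2, which acts on the telopeptides at the ends of collagen, stood at 77.9, 0, 0, 40.4 and 29.4 TPM in wild-type control, 0, 19.7, 14.2 and 11.8 TPM in wild-type TGF-β1, 0, 0.750, 0, 0.560 and 0 TPM in labelled-knockout control, and 1.17, 12.7 and 0 TPM in labelled-knockout TGF-β1 libraries. No labelled-knockout control library reached TPM 1, but 2 of 5 wild-type control libraries were also listed at 0, so these groups overlapped. Plod3, which also adds sugars to collagen and is needed in mice for type IV collagen secretion, lay between 15.7 and 182 TPM with overlap of all groups and medians of 74.2, 61.6, 77.8 and 84.9 TPM. Plod1 was the highest of the lysyl hydroxylases in 1 of 5 wild-type control, 3 of 4 wild-type TGF-β1, 0 of 5 labelled-knockout control and 2 of 3 labelled-knockout TGF-β1 libraries. Its share of their summed TPM had medians of 19.3%, 58.5%, 32.1% and 55.1% in that order.

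**Figure D2:**
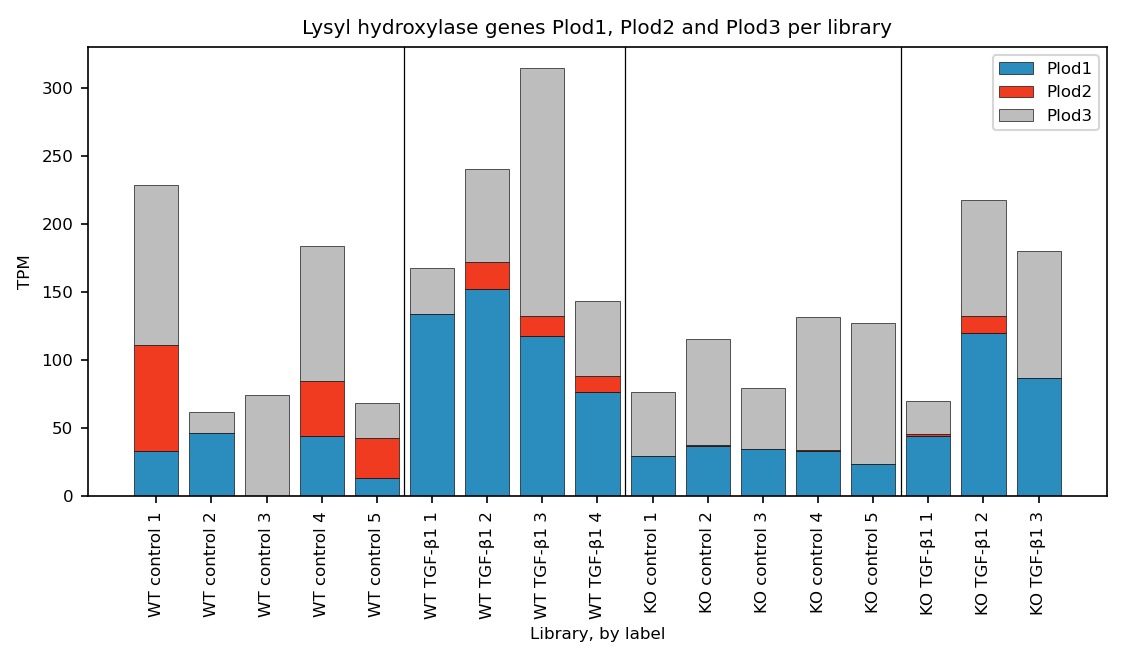
TPM of Plod1, Plod2 and Plod3 stacked in each of the 17 libraries, ordered by label with black lines between groups. Plod1 (blue) stands at 77.0 to 152.6 TPM in the 4 wild-type TGF-β1 libraries and at 46.4 TPM or less in the 5 wild-type control libraries, and Plod2 (red) is near 0 in the labelled-knockout control libraries.

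**Figure D3:**
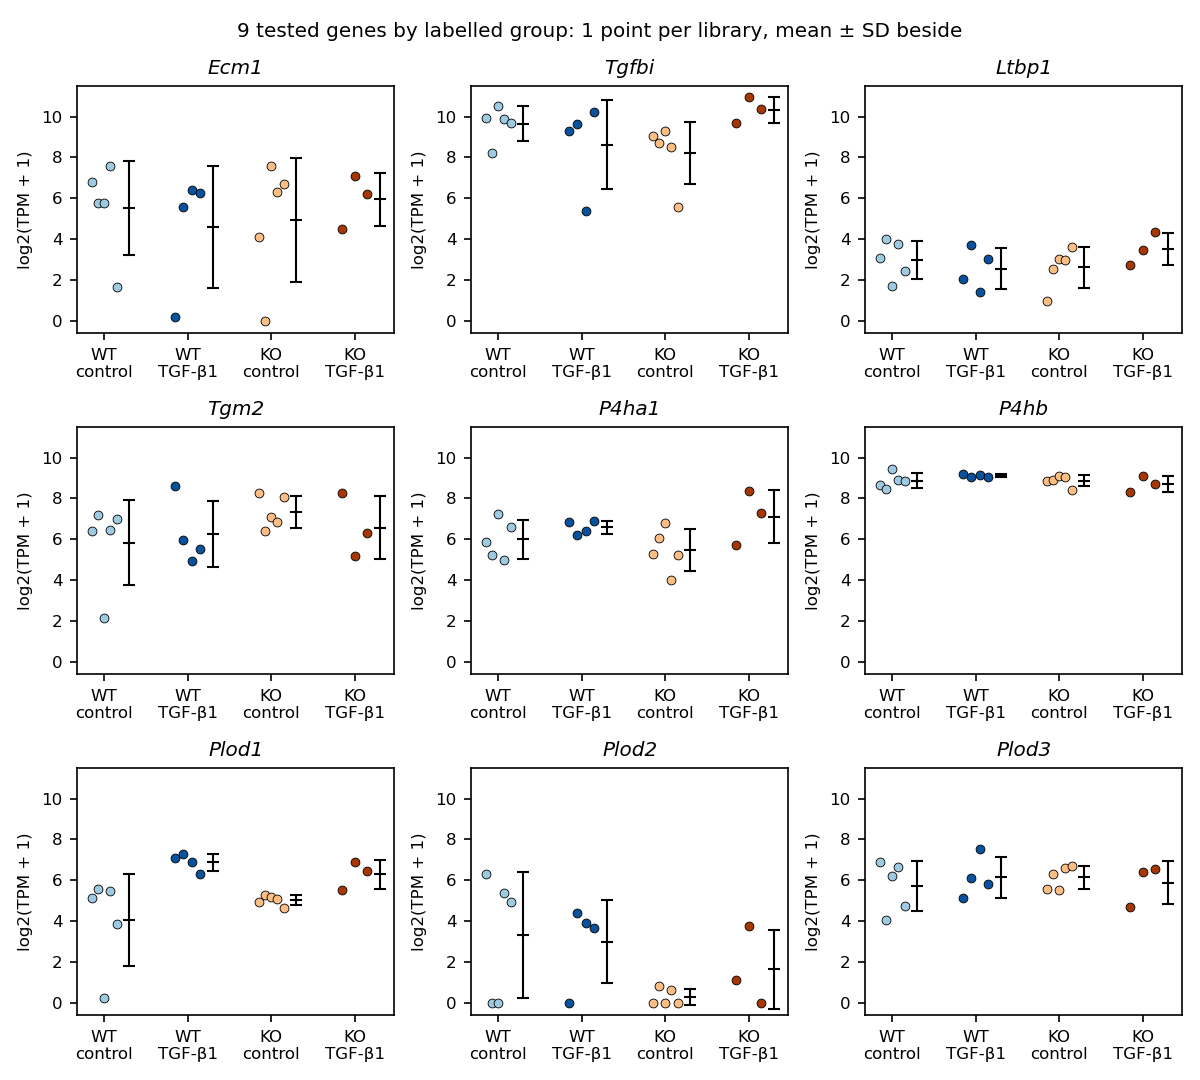
Level of each of the 9 tested genes as log2(TPM + 1) on the vertical axis, with 1 point per library in the 4 labelled groups and the mean ± SD beside the points. The Plod1 points with TGF-β1 lie above the control points in both labelled genotypes, P4hb lies in a narrow band near 9, and Ecm1 and Plod2 spread widely.

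The first comparison asked which genes differed under TGF-β1 in wild type. Differences were taken on the log2(TPM + 1) scale, which understates the change of low genes, and tested with limma over all 12158 genes that reached TPM 1 in at least 3 libraries, with a call at a Benjamini-Hochberg adjusted p under 0.05. Of the 9 tested genes of the list limma called 0, where it called 0.181% of all tested genes, and 1 of the 9 had an unadjusted p under 0.05, as did 1212 of all 12158. Plod1 differed most, with a mean of 27.5 ± 20.1 TPM (SD, n = 5) in control and 120 ± 32.2 TPM (SD, n = 4) with TGF-β1, and a log2 difference of 2.83 ± 0.82 (SE) with a limma p of 0.00260, which adjusted to 0.204. Without wild-type control replicate 3, the library at 0.170 TPM, the difference was 1.88 with an adjusted p of 0.187 in limma.

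Plod1 was the 1 gene of the 9 whose groups did not overlap, in either direction, against 2.79% of all tested genes. The other 8 had log2 differences between -1.01 (Tgfbi) and 0.59 (P4ha1). P4hb differed by 0.24 ± 0.25 (SE) and Tgfbi by -1.01 ± 0.81 (SE). The median over the 9 genes was 0.24, beside 0.09 over all tested genes. By role, the 5 intracellular genes had a median of 0.42 and the 3 secreted genes a median of -0.92. These are the values of Plod3 (0.42 ± 0.65, SE) and Ecm1 (-0.92 ± 1.48, SE). Without wild-type TGF-β1 replicate 1 Ecm1 was 0.56, and without replicate 3 Tgfbi was 0.07 and Plod3 was -0.03. Ltbp1 stayed below 0, and P4ha1, P4hb and Plod1 stayed above 0, with any 1 library left out.

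In libraries labelled knockout, limma called 0 of the 9 genes under TGF-β1, where it called 0.00823% of all tested genes, and 2 of the 9 had an unadjusted p under 0.05, as did 721 of all 12158. Tgfbi differed by 2.10 ± 0.88 (SE) on the log2 scale, from 399 ± 223 TPM (SD, n = 5) to 1379 ± 589 TPM (SD, n = 3), with a limma p of 0.0268 and an adjusted p of 0.775. Without control replicate 5, at 47.1 TPM, that difference was 1.44. P4ha1 differed by 1.64 ± 0.68 (SE, limma p 0.0254, adjusted p 0.775), and by 1.02 without TGF-β1 replicate 2.

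Plod1 differed by 1.27 ± 0.90 (SE) in the labelled knockout, from 31.9 ± 5.12 TPM (SD, n = 5) to 83.8 ± 37.8 TPM (SD, n = 3), with a limma p of 0.172 and an adjusted p of 0.900. Plod1 and Tgfbi were the 2 of 9 genes whose groups did not overlap, against 4.89% of all tested genes. The members' median was 1.02, beside 0.07 over all tested genes. The 3 secreted genes had a median of 1.02 and the 5 intracellular genes 1.27. The 1.02 is the value of Ecm1 (SE 1.61), which was -0.22 without labelled-knockout control replicate 2.

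**Figure D4:**
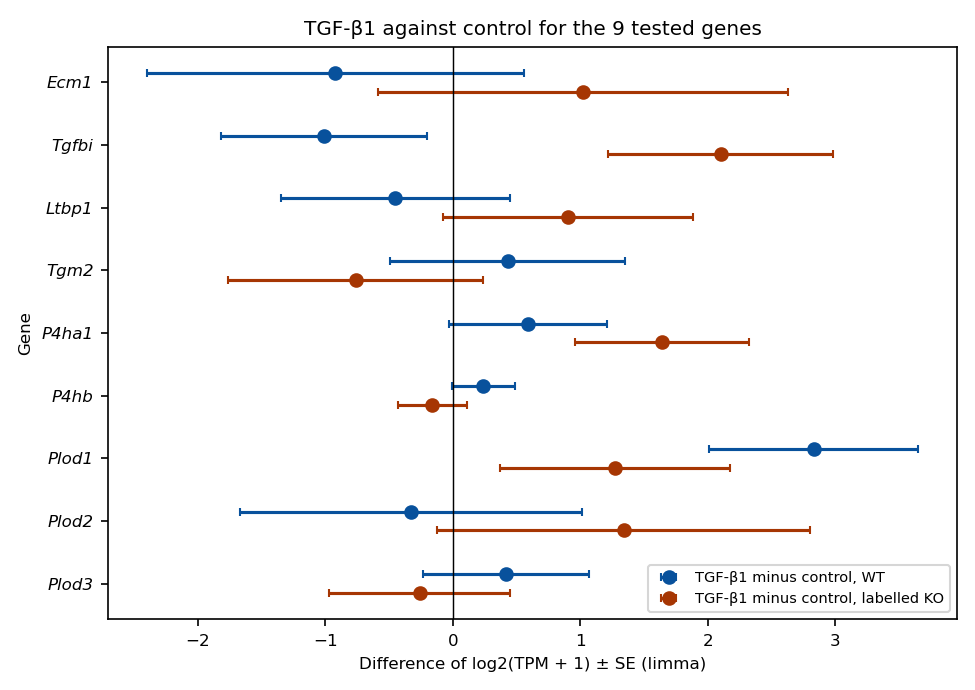
Difference of log2(TPM + 1) between TGF-β1 and control libraries (horizontal axis) for the 9 tested genes, in wild type (blue) and in libraries labelled knockout (brown), with bars of 1 SE from limma. Plod1 is above 0 in both, and Tgfbi lies at -1.01 in wild type and at 2.10 in the labelled knockout.

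Whether the TGF-β1 effect itself differed between the labelled genotypes was tested as an interaction. limma called 0 of the 9 genes and 0% of all tested genes, and 1 of the 9 and 569 of the 12158 genes had an unadjusted p under 0.05. Tgfbi had an interaction of 3.12 ± 1.19 (SE) with a limma p of 0.0168 and an adjusted p of 0.997. It fell to 2.03 without wild-type TGF-β1 replicate 3 and to 1.26 without the 6 libraries with over 10% of moderate genes at 0. Plod1 had an interaction of -1.56 ± 1.22 (SE, limma p 0.214, adjusted p 0.997), and -0.61 without wild-type control replicate 3, so a difference of its response between the labelled genotypes was not shown, and neither was likeness.

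The mean of both TGF-β1 effects was added after the values of Plod1 had been seen in both labelled genotypes. For Plod1 it was 2.05 ± 0.61 (SE) with a limma p of 0.00305 and an adjusted p of 0.166, and limma called 0 of the 9 genes, where it called 0.378% of all tested genes. With a pseudocount of 10 in place of 1 the limma adjusted p for Plod1 was 0.0440 at a difference of 1.55. Over all 12158 genes that setting gave 54 higher and 15 lower calls, against 33 and 13 in the main fit. Across the alternatives and left-out libraries the limma adjusted p for Plod1 ranged from 0.0440 to 0.393. P4ha1 had a mean effect of 1.11 ± 0.46 (SE, limma p 0.0252, adjusted p 0.357).

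Between the labelled genotypes, limma called 0 of the 9 genes in control libraries, where it called 0.148% of all tested genes, and 0 in TGF-β1 libraries, where it called 0.156%. Unadjusted p-values were under 0.05 for 1 and 0 of the 9, and for 708 and 638 of all 12158. Groups did not overlap for 0 of the 9 genes in either comparison, against 1.06% and 5.49% of all tested genes. In controls, Plod2 was lower in the labelled knockout by 3.03 ± 1.26 (SE) on the log2 scale (-3.03, limma p 0.0264, adjusted p 0.790), from 29.5 ± 32.4 TPM to 0.262 ± 0.365 TPM (SD, n = 5 each). Tgfbi differed by -1.41 ± 0.76 (SE, limma p 0.0786, adjusted p 0.890) and Tgm2 by 1.5 ± 0.87 (SE, limma p 0.0991, adjusted p 0.899). Without labelled-knockout control replicate 5 the Tgfbi difference was -0.75, and without wild-type control replicate 3 the Tgm2 difference was 0.58. With TGF-β1, Tgfbi differed by 1.70 ± 0.92 (SE, limma p 0.0788, adjusted p 0.983), and by 0.62 without wild-type TGF-β1 replicate 3. These comparisons share libraries with those of TGF-β1, so their values are not separate evidence.

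The secreted genes and the intracellular enzymes were then set beside each other in every library. The summed TPM of the 24 secreted genes ran from 126 to 2137 (median 833) and that of the 7 intracellular genes from 445 to 1089 (median 729). More intracellular than secreted genes reached TPM 1 in 15 of 17 libraries. The secreted sum exceeded the intracellular sum in 9 of 17 libraries, but in 0 of 17 once Tgfbi was left out, a choice made after its share had been seen.

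The log2 ratio of the secreted to the intracellular sum was 0.424 ± 0.426 (SD, n = 5) in wild-type control, -0.698 ± 1.58 (SD, n = 4) in wild-type TGF-β1, -0.540 ± 0.663 (SD, n = 5) in labelled-knockout control and 0.940 ± 0.0265 (SD, n = 3) in labelled-knockout TGF-β1 libraries. All 3 labelled-knockout TGF-β1 ratios, 0.920 to 0.970, lay above the 14 others, of which the highest was 0.720. With each class taken as its mean log2(TPM + 1) per gene, the group means were -3.41, -4.09, -3.0 and -3.44 in the same order. Wild-type control and labelled-knockout TGF-β1 thus changed sign, and labelled-knockout TGF-β1 was no longer the highest. Tgfbi and P4hb are the main terms of this ratio, and no test was made of it. The ratio compares RNA within a library, where the share of cells expressing a gene and its level per expressing cell cannot be told apart.

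**Figure D5:**
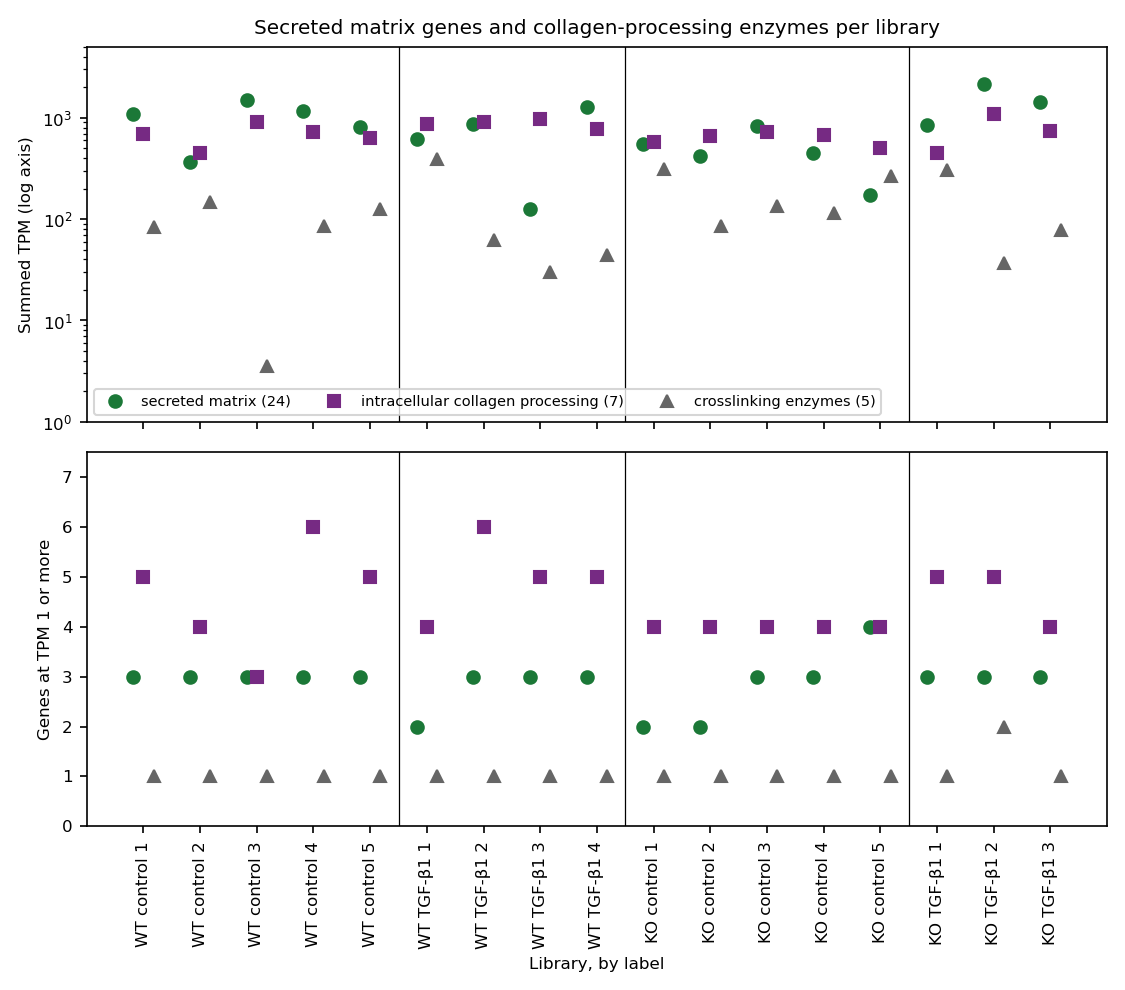
Summed TPM on a log axis (upper panel) and number of genes at TPM 1 or more (lower panel) in each of the 17 libraries for the 24 secreted genes, the 7 intracellular genes and the 5 crosslinking enzymes. The intracellular count lies above the secreted count in 15 of 17 libraries, while the secreted sums spread more widely than the intracellular sums, 126 to 2137 against 445 to 1089 TPM.

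None of the other collagen-related genes was called either in these 5 comparisons, with the exception of Cd36, a scavenger receptor that binds collagen and thrombospondin among other ligands. Of 23 tested genes of collagen folding and export limma called 0 in any comparison, with 1 to 3 of them at an unadjusted p under 0.05. It also called 0 of 11 other matrix and matrix-related genes, with 0 to 2 at an unadjusted p under 0.05. Cd36 stood at 21.5 to 1161 TPM in wild-type control and at 0.360 TPM or less in the 4 wild-type TGF-β1 libraries, and fell by 6.92 ± 0.89 (SE) on the log2 scale (limma adjusted p 0.00179). In labelled-knockout TGF-β1 libraries Cd36 was at 38.8 to 283 TPM, higher than in wild type with TGF-β1 by 6.14 ± 1.02 (SE, limma adjusted p 0.00737), while its interaction was not called. Srgn differed under TGF-β1 in wild type by 1.83 ± 0.54 (SE, limma adjusted p 0.221).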

How the data were processed

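The values are TPM, transcript abundances corrected for length and scaled to the same total in every library. Per the labels' protocols, RNA went through a column kit and SMART-seq2 amplification. Per the submitters' processing notes, the authors used FastQC, Trim Galore and RSEM with the mouse build mm9, and deposited TPM per gene; versions are not given in the sources used here. RSEM divides reads among near-identical transcripts, and whether strand was used is not stated. TPM keeps no depth, so no counting interval or detection floor is given. All 17 columns were used. Symbols came from GENCODE vM21, which matched 32897 of 37620 gene IDs.

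Values were analysed as log2(TPM + 1), for genes that reached TPM 1 in at least 3 libraries. limma 3.58.1 in R 4.3.3 (trended eBayes) took the 4 labelled groups in a single model without covariates, from which 5 comparisons came, with Benjamini-Hochberg adjustment over 12158 genes. The pipeline was tested on simulated data with normal noise, with changes planted only in genes of a within-group log2 SD under 1. The median SD of tested genes was 1.47, so recovery of changes in more variable genes was not tested. Detection and class sums were described without a test. The genes and lists were chosen with earlier results of these data known. The text names every gene of the list at TPM 1 in a library and those listed at 0. From other lists it names called genes, up to 4 of the highest mean, and the further collagen chains. Of the reference lists, Rpl3 and Tubb5, genes that every cell uses, and the macrophage marker Csf1r were called in 1 comparison each. Alternatives were other pseudocounts, filters, scalings, covariates, the replicate number as a block, and leaving out libraries. No pair of libraries held identical values.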

Additional observations from a re-analysis of the deposited data

Results flagged for a closer look

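In groups of 4 or 5 libraries, 30 sets of values were checked for a single library far from the rest by Dixon's criterion, and 4 were marked, where chance alone marks about 1 group in 20. Ecm1 was at 0.18 on the log2(TPM + 1) scale in wild-type TGF-β1 replicate 1 (0.130 TPM), and the other 3 libraries lay at 5.56 to 6.39. Plod2 was at 0.00 in the same library, with the other 3 at 3.67 to 4.37. Tgfbi was at 5.59 in labelled-knockout control replicate 5 (47.1 TPM), with the other 4 at 8.53 to 9.32. Tgm2 was at 2.16 in wild-type control replicate 3 (3.48 TPM), with the other 4 at 6.38 to 7.2. Wild-type control replicate 3 is also the library with Plod1 at 0.170 TPM. The causes were not tested.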

How the results depend on the processing

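The count of list genes called was 0 in the 5 comparisons under every alternative. Over all tested genes, no such fit gave more than 23 higher or 14 lower calls in a comparison. Of 1231 single-gene alternatives over 46 gene and comparison pairs, 1199 kept direction and side of the threshold and 31 changed sign. The remaining 1 passed the threshold (Plod1, mean effect, pseudocount 10), where 54 of all 12158 genes were called higher and 15 lower. Without the 6 libraries with over 10% of moderate genes at 0, signs changed for Tgfbi (0.64) and Tgm2 (-0.09) under TGF-β1 in wild type, Ecm1 under TGF-β1 in the labelled knockout (-0.79), Plod1 between genotypes in controls (-0.37) and P4ha1 between genotypes with TGF-β1 (-0.14), all as log2 differences. Plod2 under TGF-β1 in wild type was 0.13 with a pseudocount of 0.1. The cause was not tested.

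Leaving out 1 library at a time changed signs for these log2 differences. Under TGF-β1 in wild type, Ecm1 ran from -1.89 to 0.56, Tgfbi from -1.54 to 0.07, Tgm2 from -0.49 to 0.86, Plod2 from -1.16 to 0.67 and Plod3 from -0.03 to 0.76. Under TGF-β1 in the labelled knockout, Ecm1 ran from -0.22 to 1.73, P4hb from -0.36 to 0.02 and Plod3 from -0.59 to 0.34. Between genotypes in controls, Ecm1 ran from -1.55 to 0.65, Ltbp1 from -0.70 to 0.03 and P4hb from -0.10 to 0.15. Between genotypes with TGF-β1, Ecm1 ran from -0.12 to 2.07, Tgm2 from -0.52 to 1.10, P4ha1 from -0.09 to 1.22 and Plod3 from -0.59 to 0.35. Plod1 under TGF-β1 ran from 1.88 to 3.21 in wild type (adjusted p 0.143 to 0.359 in limma) and from 0.96 to 1.67 in the labelled knockout. Without the 6 libraries with over 10% of moderate genes at 0, Plod1 differed by 1.54 in wild type (limma adjusted p 0.414). Its mean effect over both labelled genotypes was then 1.28 (limma adjusted p 0.350).

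Counting any TPM above 0 as detected gave 15 genes in at least 3 libraries and 19 in at least 1, against 9 and 12. The log2 ratio of secreted to intracellular sums became -3.41, -4.09, -3.0 and -3.44 when taken as mean log2(TPM + 1) per gene, in the order wild-type control, wild-type TGF-β1, labelled-knockout control and labelled-knockout TGF-β1. It was -3.55, -4.61, -3.82 and -3.30 without Tgfbi, and 2.21, 0.74, 1.46 and 2.29 without P4hb, in the same order. Both exclusions were chosen after seeing the data. With crosslinking enzymes counted as secreted it was 0.02 in labelled-knockout control and 1.12 in labelled-knockout TGF-β1. Leaving out 1 library moved it between -1.17 and 0.05 in wild-type TGF-β1, with 0.05 without replicate 3.

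Correlations of deviations between libraries with the same replicate number ran from -0.0761 to 0.0213 over 22 pairs, so no pairing was seen in the values. Whether such libraries share an animal or a culture cannot be told from these correlations. With the replicate number as a block, 0 list genes were called, and Plod1 under TGF-β1 in wild type differed by 2.76 (limma adjusted p 0.306). Over all genes the block gave 6 higher and 5 lower calls in that comparison, against 13 and 9 without it.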
